A study of Mus musculus with 57 samples.

Results

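Zfp352 and Spz1 are 2 protein-coding genes that the mouse embryo transcribes for a short time around the 2-cell stage. They were found in the deposited expression table by their Ensembl identifiers, ENSMUSG00000070902.5 for Zfp352 and ENSMUSG00000046957.5 for Spz1, and make up 2 of its 59119 rows. Both were chosen because earlier results of these same data showed them switched on in the early 2-cell embryo, so their levels over stages and hours are given as a description, with no test.

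The study sequenced total RNA of wild-type C57BL/6 oocytes and embryos at 8 stages: the ovulated MII egg, the zygote, the embryo early (E2-cell) and late (L2-cell) in its 2-cell stage, the 4-cell and 8-cell embryo, the morula and the blastocyst, and of wild-type BDF1 embryos at 14, 17 and 20 hours after fertilization. In BDF1 embryos it also compared MT2Mm ko with ctrl embryos at Late1c and at Early2c (age labelled as 6 to 8 weeks), and embryos labelled LncR-3363 KD-1cell and KD-2cell, whose genotype is given as LncR-3363 KD, with wild-type Ctrl embryos. Per the labels, each MII oocyte received 5 to 10 pL, by microinjection, of 150 ng/µL MT2-Mm sgRNA and 100 ng/µL Cas9 mRNA, or of 20 µM antisense oligonucleotide (ASO). What the ctrl and Ctrl embryos received is not stated in the labels, the guide targets a repeat with many copies in the genome, and neither the edited share of those copies nor LncR-3363 itself was analysed here. There were 2 columns for each stage and hour, 3 for each MT2Mm group, 4 each for KD-1cell and Ctrl and 1 for KD-2cell.

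MT2_Mm is the long terminal repeat of MERVL, an endogenous retrovirus that mouse embryos transcribe at the 2-cell stage, when the zygotic genome first becomes broadly active. Copies of such repeats serve as promoters of many genes of that stage. Zfp352 encodes a C2H2 zinc finger protein and is widely used as a marker of 2-cell embryos and of 2-cell-like stem cells. Spz1 encodes a transcription factor with a basic helix-loop-helix and leucine zipper region that is best known from developing sperm cells in the testis.

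Zfp352 lies on the plus strand of chromosome 4 (GRCm38, chr4:90218820-90225702). Its longer transcript has 2 exons. Exon 1, of 156 bases, is entirely 5′ untranslated, and the coding sequence lies within exon 2. Spz1 lies on the minus strand of chromosome 13 (chr13:92574636-92576172) and has a single exon. No other annotated gene overlaps either of them. The 250 bases before each RefSeq start (RefSeq, GRCm38.p6) are printed here because the 2 windows hold different repeats. In Zfp352 (chr4:90218570-90218819, plus strand) the capitals mark GGATTA on either strand, the core that homeobox factors of the OBOX, OTX and CRX type recognise. In Spz1 (chr13:92576233-92576482, minus strand) they mark GTGTGG, which overlaps its next copy by a G in a short tandem repeat.
Zfp352: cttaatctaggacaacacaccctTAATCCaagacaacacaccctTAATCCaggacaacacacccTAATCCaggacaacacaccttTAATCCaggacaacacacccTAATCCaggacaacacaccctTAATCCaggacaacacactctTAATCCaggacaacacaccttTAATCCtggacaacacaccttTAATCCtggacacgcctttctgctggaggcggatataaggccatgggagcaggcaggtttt
Spz1: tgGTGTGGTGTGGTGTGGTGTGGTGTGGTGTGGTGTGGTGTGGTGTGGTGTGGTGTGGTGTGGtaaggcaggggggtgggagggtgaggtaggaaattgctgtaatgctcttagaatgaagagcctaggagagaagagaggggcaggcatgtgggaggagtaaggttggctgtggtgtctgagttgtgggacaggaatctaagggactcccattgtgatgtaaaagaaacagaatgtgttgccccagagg

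The Zfp352 window held 9 matches to GGATTA, against 0 in the Spz1 window. Of 32851 mouse promoter windows 250 bases long, 2054 (6.25%) held at least 1 match, and Zfp352 had more than any other. The matches came with a repeated unit: the 10 bases gacaacacac occurred 9 times, 20 or 21 bases apart. The Spz1 window held 12 matches to GTGTGG, against 0 in the Zfp352 window. At least 1 such match was present in 5592 of the 32851 windows, and none of the others had as many. GTGTGG was taken from the tandem repeat of the Spz1 window itself, so that first place largely follows from the choice and is a description only. The Zfp352 window also held 1 match to TATAA, which 22.8% of windows share, and the Spz1 window had none. Searched on both strands, neither window matched the Dux motif, TCAAGGTCA (NR5A2), TGCACAC (ZSCAN4) or CCAAT. Of all windows 0.0304% held the Dux motif, 0.387% the NR5A2, 3.67% the ZSCAN4 and 33.8% the CCAAT motif. A match is a run of letters and not a measured binding site, and the repeat class of the 2 windows was not analysed here. Where the transcripts of the embryo begin was not analysed either, so the windows may not be the promoters used there.

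The columns held between 10704 and 12892 rows at 1 FPKM (a level scaled for transcript length and library size) or more. The files give no read counts, so the depth behind each value is unknown. FPKM is a share of the RNA of a pool, described for the stage libraries as about 150 to 200 embryos, so that fewer embryos with a transcript and less of it per embryo cannot be told apart. The stage labels were checked against 8 oocyte markers such as Zp3 and Gdf9: their summed level was 3951 to 4006 FPKM in MII eggs, 1590 to 1720 in E2-cell and 348 to 381 in L2-cell embryos. Since Spz1 is a testis gene, sperm and testis markers were checked as well. Of 12 sperm and testis genes, Tnp1, Tnp2, Smcp, Akap4 and Tex101 were listed at 0 in both zygote columns. Ddx4 reached 11.3, Prm2 6.77 and Ldhc 2.37 FPKM there, and Odf1, Meig1, Acrv1 and Prm1 reached 0.337 FPKM or less. The list summed to 20.5 to 24.4 FPKM in MII eggs and to 10.9 to 20.5 FPKM in zygotes, so it does not single out sperm. Spz1 was listed at 0 in both zygote columns.

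Zfp352 came on in the early 2-cell embryo and was then lost stage by stage. It was listed at 0 in both MII and both zygote columns, and stood at 45.1 and 45.5 FPKM in E2-cell embryos. The L2-cell columns held 31.5 and 27.5 FPKM, 65.1% of the E2-cell mean. Zfp352 was at 6.07 and 7.20 FPKM in 4-cell and at 1.48 and 1.25 FPKM in 8-cell embryos, which is 14.6% and 3.02% of its E2-cell mean. In morulae it was at 0.118 and 0.0562 FPKM, and in blastocysts at 0 and 0.210 FPKM. The order of the stages was therefore E2-cell, L2-cell, 4-cell, 8-cell, with no overlap between neighbours, while morula and blastocyst values overlapped. At its peak Zfp352 stood at place 904 of the 11051 Ensembl rows that averaged at least 1 FPKM in E2-cell embryos.

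Spz1 came on at the same stage, peaked a stage later and lasted longer. It was at 0.0306 and 0 FPKM in MII eggs and listed at 0 in both zygote columns. E2-cell embryos held 15.1 and 14.3 FPKM of Spz1, and L2-cell embryos 26.1 and 27.1 FPKM, 1.81 times the E2-cell mean. Spz1 was still at 15.9 and 14.8 FPKM in 4-cell embryos, 57.6% of the L2-cell mean, and those values overlapped the E2-cell ones. It stood at 4.25 and 3.92 FPKM in 8-cell embryos and at 1.71 and 1.67 FPKM in morulae. In blastocysts it was at 0.133 and 0.0790 FPKM. From the L2-cell stage on, neighbouring stages did not overlap.

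The 2 genes therefore changed places. The ratio of Spz1 to Zfp352, both in FPKM and so per length, was 0.313 to 0.335 in E2-cell, 0.830 to 0.984 in L2-cell, 2.05 to 2.62 in 4-cell and 2.87 to 3.13 in 8-cell embryos. No 2 of these stages overlapped, and Zfp352 was the higher gene in the 2-cell embryo, Spz1 in the 4-cell and 8-cell embryo. Column names carry tags b1, b2 and b3 whose meaning the labels do not give: both E2-cell columns are b2 and both L2-cell columns are b3, so the stages and the tags cannot be told apart there. The 4-cell and 8-cell columns are named merge instead, a word that the labels do not explain. The 4-cell columns are numbered 3 and 4, which matches no sample number.

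**Figure D1:**
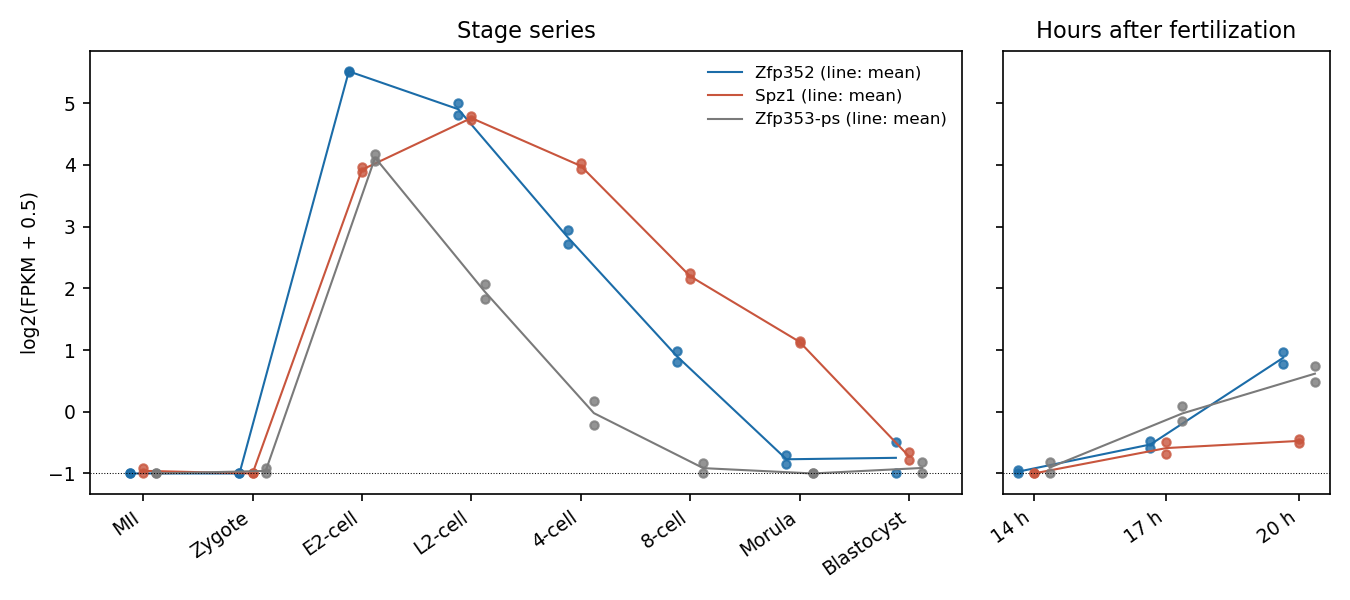
Levels of Zfp352, Spz1 and the pseudogene Zfp353-ps as log2(FPKM + 0.5), with stages or hours after fertilization on the horizontal axis. Points are single columns (2 per group), lines join group means, and the dotted line is a listed 0. Zfp352 is highest in E2-cell embryos at 45.1 and 45.5 FPKM, and Spz1 in L2-cell embryos at 26.1 and 27.1 FPKM.

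The time series showed the first traces of both transcripts in BDF1 embryos. Zfp352 was at 0.0199 and 0 FPKM at 14 hours after fertilization, at 0.168 and 0.218 FPKM at 17 hours and at 1.21 and 1.46 FPKM at 20 hours. The 3 times did not overlap, and the mean at 20 hours was 6.93 times that at 17 hours. Spz1 was listed at 0 in both columns at 14 hours, and was at 0.209 and 0.124 FPKM at 17 hours and 0.203 and 0.238 FPKM at 20 hours. The Spz1 values at 17 and 20 hours overlapped. The 17-hour columns are named cat and the others merge, words that the labels do not explain. All of these levels were far below those of the E2-cell embryos, which were of another strain.

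Genes that followed the same course were ranked by Pearson's r between 8 stage means on the log2(FPKM + 0.5) scale, over 11579 rows reaching a stage mean of 5 FPKM. Stage means share their libraries, and r is a description with no test. The 5 named rows most like Zfp352 were Gm21936 (r = 0.998), Gm8300, Gm48388, Pramef25 and Gm2022, all at 0.995 or above. The 5 most like Spz1 were B020004J07Rik (0.996), Gm10696 (0.993), AC124237.1, Gm5543 and Gm44739, the last at 0.987. B020004J07Rik averaged 17.9 FPKM in E2-cell, 30.5 in L2-cell, 17.8 in 4-cell and 4.96 in 8-cell embryos, much as Spz1 did. Between Zfp352 and Spz1 r was 0.918, which placed Spz1 at 122 in the Zfp352 ranking and Zfp352 at 120 in the Spz1 ranking. A wider set was defined by the switch itself: 54 rows were under 0.1 FPKM in all 4 MII and zygote columns and at 10 FPKM or more in both E2-cell columns. Within it Zfp352 ranked 5 and Spz1 ranked 37 by E2-cell mean.

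Zfp352 has a near copy, which bears on how its level is read. Zfp353-ps, annotated as a pseudogene on the minus strand of chromosome 8, matched the Zfp352 transcript at 95.2% of 1650 aligned bases without a gap. The longest identical stretch was 113 bases, and none of the 2127 stretches of 150 bases in the Zfp352 transcript, the read length used, occurs unchanged in Zfp353-ps. Of 2096 25-base words in Zfp352 exon 2, 502 also occur in Zfp353-ps, 114 in Enah transcripts and 75 in the neighbouring pseudogene Gm12633. Zfp352 exon 1 and Spz1 share none with another annotated transcript. No source used here says how reads that fit several genes were assigned, so the split between Zfp352 and its copy is uncertain.

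The 2 copies did not keep a constant ratio. Zfp353-ps was at 16.2 and 17.6 FPKM in E2-cell and at 3.05 and 3.71 FPKM in L2-cell embryos. Its level divided by that of Zfp352 was 0.360 to 0.386 in E2-cell and 0.0971 to 0.135 in L2-cell embryos. In the BDF1 embryos it was 0.855 to 0.871 in Early2c ko and 0.753 to 0.870 in Early2c ctrl embryos, and 1.12 to 1.29 in KD-1cell and 1.22 to 1.33 in Ctrl embryos. The C57BL/6 stage series thus had less Zfp353-ps per Zfp352 than either BDF1 experiment, and strain and experiment cannot be told apart here.

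The MT2Mm experiment holds the switch within 1 experiment. Zfp352 stood at 34.9, 38.7 and 40.2 FPKM in Early2c ctrl embryos, against 0.115, 0.0773 and 0.140 FPKM in Late1c ctrl embryos. In ko embryos it stood at 38.3, 34.8 and 34.0 FPKM at Early2c, against 0.0585, 0.0529 and 0.0480 FPKM at Late1c. Every Early2c value lay far above every Late1c value in both arms. On the log2(FPKM + 0.5) scale the difference was 5.97 ± 0.07 (SE) in ctrl embryos and 6.03 ± 0.07 in ko embryos. Both genes were chosen for this switch and passed the filter on low values only through the Early2c columns, so these differences are a description, with no test. The offset understates the change of a gene that starts near 0.

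Spz1 was also high at Early2c and near 0 at Late1c in both arms. It stood at 13.9, 13.4 and 13.4 FPKM in Early2c ctrl embryos, against 0.0788, 0.409 and 0.0589 FPKM in Late1c ctrl embryos. In ko embryos it stood at 4.40, 4.36 and 4.30 FPKM at Early2c, against 0.0186, 0 and 0 FPKM at Late1c. The log2 difference was 4.40 ± 0.15 (SE) in ctrl embryos and 3.26 ± 0.15 in ko embryos, again as a description. Over all 13180 rows limma was run with Benjamini-Hochberg adjustment, and a row was called where the adjusted p was under 0.05, which held for 79.2% of rows in ctrl and 70.4% in ko embryos. In ctrl embryos 33.5% of rows were called higher and 45.7% lower at Early2c than at Late1c, and in ko embryos 33.9% and 36.6%. Of 45 other 2-cell genes, a list of genes such as Tcstv3 and Usp17la known or proposed to rise with MERVL, 41 rose in ctrl embryos and 3 fell, with a median log2 change of 4.05 against -0.15 over all rows. The list was chosen for 2-cell genes with earlier results of these data known, so its rise is a description as well.

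The question of the knockout at Early2c is which transcripts depend on the targeted repeat. Spz1 fell, to 4.35 FPKM in ko against 13.6 FPKM in ctrl embryos, while Zfp352 stayed within its spread. Spz1 was at 4.40, 4.36 and 4.30 FPKM in ko embryos (4.35 ± 0.0505, SD, n = 3), against 13.9, 13.4 and 13.4 FPKM in ctrl embryos (13.6 ± 0.309, SD, n = 3). All 3 ko values lay below all 3 ctrl values, and the ko mean was 32.0% of the ctrl mean. The limma log2 change was -1.54 ± 0.15 (SE; 95% interval -1.86 to -1.21; adjusted p = 7.4e-06). Ordered by log2 change, Spz1 was at place 136 from the lowest of 13180 rows. Calls were common in this comparison: 49% of rows were called, 33.4% higher and 15.6% lower in ko embryos.

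Zfp352 was at 38.3, 34.8 and 34.0 FPKM in ko embryos (35.7 ± 2.30, SD, n = 3), against 34.9, 38.7 and 40.2 FPKM in ctrl embryos (37.9 ± 2.75, SD, n = 3). The groups overlapped. The limma log2 change was -0.08 ± 0.07 (SE; 95% interval -0.25 to 0.08; adjusted p = 0.366), so a loss of the size seen for Spz1 lies outside its interval. The call depends on scaling: the median change over all rows was 0.11 in ko embryos, and once columns were scaled by the median of ratios, which moved that median by -0.13, Zfp352 was called lower at -0.23 (adjusted p = 0.0164) and Spz1 stood at -1.68 (adjusted p = 3.7e-06). The same scaling turned the split of calls into 3112 higher and 3401 lower, against 4402 higher and 2056 lower in the FPKM as deposited.

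The ratio of the 2 genes does not depend on scaling. Spz1 divided by Zfp352 was 0.115 to 0.126 in ko embryos, against 0.332 to 0.400 in ctrl embryos at Early2c. The 2 ranges were far apart, with a difference of -1.56 on the log2 scale. An exact two-sided permutation test over the 3 ko and 3 ctrl samples gave p = 0.1, the smallest it can give at this size. Markers of other cells were checked in the same comparison, where 33.4% of all rows were called higher and 15.6% lower. The summed oocyte markers were 761 to 848 FPKM in ko and 682 to 787 in ctrl embryos. Of these 8 markers, 3 were called higher and 1 lower, near the share of all rows. The sperm and testis list summed to 15.2 to 16.9 FPKM in ko and 11.6 to 13.8 in ctrl embryos, with 2 of 3 tested genes higher. The 6 trophectoderm markers summed to 17.02 to 19.2 FPKM in ko and 12.9 to 14.5 in ctrl embryos, with 3 of 5 tested genes higher. Most of these calls were lost with scaling by the median of ratios, which left 1 oocyte marker higher and 1 lower, none of the 3 sperm and testis genes and 1 of the 5 trophectoderm markers higher. Their part in the change of Spz1 was not tested. Of the sperm and testis list, Tnp1, Tnp2, Smcp and Akap4 were listed at 0 in 41 of the 43 columns, Prm2 in 3 and Ddx4 in none.

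**Figure D2:**
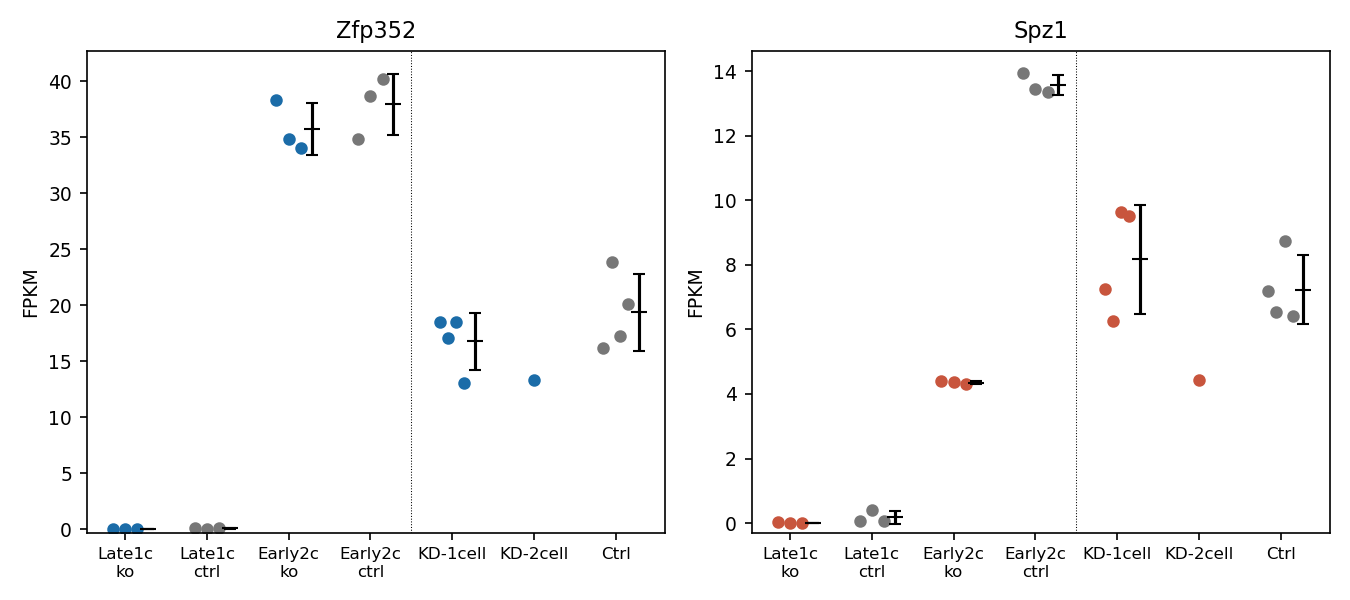
FPKM of Zfp352 (left) and Spz1 (right) in MT2Mm ko and ctrl embryos at Late1c and Early2c and in LncR-3363 KD-1cell, KD-2cell and Ctrl embryos. Coloured points are ko or KD samples, grey points their controls, and bars show mean ± SD. Spz1 is at 4.30 to 4.40 FPKM in Early2c ko and 13.4 to 13.9 FPKM in Early2c ctrl embryos, while the Zfp352 groups overlap.

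Genes with the course of Spz1 did not all share its fall. B020004J07Rik was at 6.79, 7.45 and 6.81 FPKM in Early2c ko embryos, against 15.2, 16.0 and 16.5 FPKM in Early2c ctrl embryos, a log2 change of -1.12 (limma, adjusted p = 9.5e-07). AC124237.1 (-1.20, adjusted p = 1.3e-06) and Gm44739 (-0.97, adjusted p = 3.3e-05) also fell by limma. Gm10696 was not called, at 0.12 (adjusted p = 0.298). Gm5543 was not called either, at -0.15 (adjusted p = 0.129), although scaling by the median of ratios made it -0.30 and called. Of the 5 rows most like Zfp352, none was called: Gm48388 was at -0.51, Gm21936 at -0.28, Gm2022 at -0.16, Gm8300 at -0.05 and Pramef25 at 0.05. With that scaling Gm21936 (-0.43) and Gm2022 (-0.31) were called lower. Without it 49% of all rows were called, 33.4% higher and 15.6% lower, so counts over 5 rows each do not set the 2 courses apart.

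Among the other 52 rows switched on at the E2-cell stage, 13 were higher, 21 lower and 18 not called in Early2c ko embryos, with a median log2 change of -0.17 against 0.11 over all rows. Of all rows 33.4% were called higher and 15.6% lower. XLOC_005270, an unnamed locus, at -1.67 and Gm48399 at -1.63 fell more than Spz1, both named here after their values were seen. After scaling by the median of ratios, 11 were higher and 28 lower. Of the 13 higher rows 6 were Obox4 pseudogene copies such as Obox4-ps18 (0.48), whose near-identical sequences can share reads.

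Of the 45 other 2-cell genes, 5 rose, 12 fell and 28 were not called at Early2c, with a median of -0.06 against 0.11 over all rows. Over all rows 33.4% were called higher and 15.6% lower. Some of these genes, such as AF067061, Gm4027 and Zfp353-ps, also belong to the switched-on rows above, so the 2 lists are not independent. None fell as far as Spz1. The largest falls were in Mt2, a metallothionein (-0.92), P4ha2, a collagen prolyl hydroxylase subunit (-0.78), AF067061 (-0.72) and Ddit4l (-0.65). The largest rise in ko over ctrl embryos was in Arg2, the mitochondrial arginase, at 1.36. Within ko embryos Arg2 was lower at Early2c than at Late1c, at -0.75, so it was not switched on there. Gm4340, from a family with near-identical copies, fell by 0.31, while Tcstv3 (-0.41), Tdpoz3 (0.25) and Usp17la (0.06) were not called. Scaling by the median of ratios gave 3 higher and 17 lower in this list.

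Of 21 tested regulators of the MERVL program, 11 were higher and 5 lower in ko than in ctrl embryos at Early2c. Of all rows 33.4% were higher and 15.6% lower. The list median was 0.32 against 0.11 over all rows. Copies of 1 family count separately here and can share reads. Duxbl1, Duxbl2 and Duxbl3, each at 0.32, are among the 11, and Zscan4a, Zscan4c, Zscan4d and Zscan4f among the 5. The list median is the value of Duxbl2. Duxf3, the gene of DUX, a double homeobox factor known to switch on MERVL, was at 6.75, 8.11 and 5.26 FPKM in ko embryos, against 4.04, 3.19 and 3.88 FPKM in ctrl embryos, a log2 change of 0.77 (limma, adjusted p = 0.000778). The groups did not overlap. Nr5a2, an orphan nuclear receptor, was higher in ko embryos by 0.45, Dppa2 by 0.59 and Smad7, an inhibitor of TGF-beta signalling, by 0.96. Higher in ko embryos need not mean switched on. From Late1c to Early2c within ko embryos, 16 of the 21 regulators were called higher and 2 lower. Over all rows 33.9% were higher and 36.6% lower. Duxf3 rose by 2.79 over that time, Nr5a2 (-0.07) and Dppa2 (0.07) were not called, and Obox2 (-1.66) fell. Zscan4c, from a 2-cell zinc finger cluster of similar copies, was at 46.3, 45.5 and 46.6 FPKM in ko embryos, against 67.0, 68.6 and 68.0 FPKM in ctrl embryos, a fall of 0.55 (adjusted p = 1.9e-05). Zscan4d fell by 0.62, and Obox3 was not called, at 0.04. With scaling by the median of ratios 7 regulators were higher and 5 lower.

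Of 27 silencers of MERVL that were found, 23 were tested, and of these 8 rose and 2 fell. Over all rows 33.4% were higher and 15.6% lower, so the share of silencers called higher is near that of all rows, and their median of 0.10 is near the 0.11 over all rows. After scaling by the median of ratios 5 rose and 9 fell. Zfp809, a zinc finger protein that recruits TRIM28 to retroviral DNA, fell by 1.15 (limma, adjusted p = 1.1e-05). Ncl, the gene of nucleolin (0.81), Chaf1b, a subunit of the histone chaperone CAF-1 (0.67), and Dnmt1, the maintenance DNA methyltransferase (0.66), were higher in ko than in ctrl embryos. From Late1c to Early2c within ko embryos, Dnmt1 (-2.30) and Ncl (-0.83) fell and Chaf1b (0.42) rose. These lists were chosen with earlier results of these data known.

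**Figure D3:**
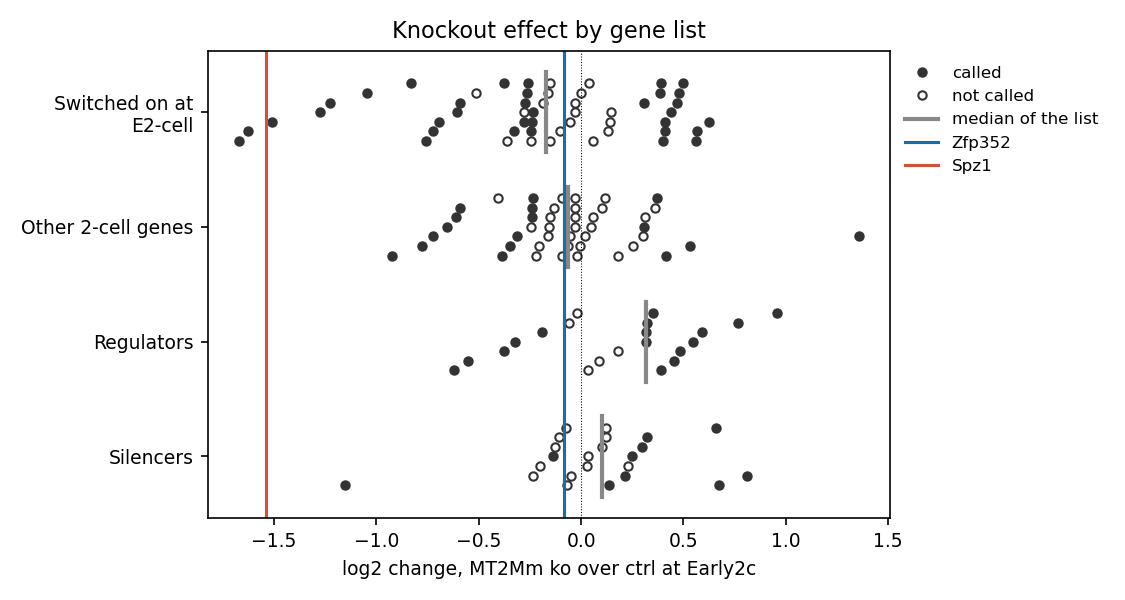
Log2 change of each gene in MT2Mm ko over ctrl embryos at Early2c (horizontal axis) for rows switched on at the E2-cell stage and for 3 gene lists (vertical axis). Filled points were called (adjusted p under 0.05), open points were not, grey bars are list medians, and the vertical lines mark Zfp352 (-0.08) and Spz1 (-1.54). Spz1 lies below every gene of the 3 lists.

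The genes beside the 2 members gave no parallel fall. Zfyve16, the neighbour of Spz1 that lies 43768 bases away and encodes an endosomal zinc finger protein, was at 0.10 in Early2c ko over ctrl embryos (limma, adjusted p = 0.265). Serinc5, the neighbour on the other side, was under 1 FPKM in those embryos and was not tested. Beside Zfp352, the lincRNA Gm12629 was at -0.05 (adjusted p = 0.778). Gm12633, which shares sequence with Zfp352 exon 2, was higher by 0.73 (adjusted p = 0.000209), at 5.45 FPKM in ko against 3.07 FPKM in ctrl embryos. Within ko embryos Gm12633 was lower at Early2c than at Late1c, at -1.23. The near copy Zfp353-ps averaged 30.7 ± 2.32 FPKM in ko and 31.4 ± 1.83 FPKM in ctrl embryos (SD, n = 3 each), a log2 change of -0.03 (adjusted p = 0.782).

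At Late1c both genes were near 0 and neither was called. Both entered the fit only through the Early2c columns, so the tests at Late1c decide nothing about them. Zfp352 was at 0.0585, 0.0529 and 0.0480 FPKM in ko embryos, against 0.115, 0.0773 and 0.140 FPKM in ctrl embryos, a log2 change of -0.14 ± 0.07 (SE; limma, adjusted p = 0.643). Spz1 was at 0.0186, 0 and 0 FPKM in ko embryos, against 0.0788, 0.409 and 0.0589 FPKM in ctrl embryos, a change of -0.39 ± 0.15 (SE; adjusted p = 0.505). All 3 ko values lay below all 3 ctrl values for each gene, and 0.114% of rows were called, 0.0455% higher and 0.0683% lower in ko embryos. Zfp353-ps was higher than Zfp352 at this stage and just missed the threshold, at -0.48 (adjusted p = 0.0561). Zfp352 and Zfp353-ps summed stood at -0.52 (limma, adjusted p = 0.0358). That sum was added after seeing the data, so its value is not read as a result.

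On the log2(FPKM + 0.5) scale the knockout effect on Spz1 differed between Early2c and Late1c, by -1.14 ± 0.21 (SE; limma interaction, adjusted p = 0.00146). Of all rows 37.3% were called in this test, 25.7% above 0 and 11.6% below 0. For Spz1 the test uses the same Late1c values near 0, so its call decides nothing. The value of Spz1 depends on the offset added to levels near 0, since with 0.1 in place of 0.5 FPKM it was -0.42 (adjusted p = 0.531). It shows no larger proportional fall at Early2c, where the ko mean was 32.0% of the ctrl mean, since at Late1c Spz1 was listed at 0 in 2 of the 3 ko columns. For Zfp352 the difference was 0.06 ± 0.10 (SE; adjusted p = 0.699), and its sign turned with the offset and with the scaling.

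The knockdown asked which transcripts depend on LncR-3363. Neither gene was called. Zfp352 was at 18.5, 17.1, 18.5 and 13.0 FPKM in KD-1cell embryos (16.8 ± 2.57, SD, n = 4), against 16.2, 23.8, 17.3 and 20.1 FPKM in Ctrl embryos (19.4 ± 3.40, SD, n = 4). The groups overlapped, and the limma log2 change was -0.20 ± 0.14 (SE; 95% interval -0.52 to 0.12; adjusted p = 0.283). Spz1 was at 7.27, 6.25, 9.64 and 9.50 FPKM in KD-1cell embryos (8.17 ± 1.68, SD, n = 4), against 7.19, 6.54, 8.75 and 6.43 FPKM in Ctrl embryos (7.23 ± 1.07, SD, n = 4). These groups overlapped as well, and the change was 0.15 ± 0.15 (SE; 95% interval -0.18 to 0.49; adjusted p = 0.433). In the same limma test 43.7% of 11492 rows were called, 29.8% higher and 13.9% lower in KD-1cell embryos. With scaling by the median of ratios 2353 rows were higher and 2327 lower, in place of 3420 and 1598, and neither gene was called. The single KD-2cell sample, which enters no test, had 13.3 FPKM of Zfp352 and 4.42 FPKM of Spz1. Both values lay below all 4 Ctrl values of their gene.

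Some other genes of the stage were called in the knockdown, where 29.8% of all rows were higher and 13.9% lower. Duxf3 was at 15.7, 10.0, 18.9 and 17.01 FPKM in KD-1cell embryos, against 6.37, 4.97, 5.46 and 8.65 FPKM in Ctrl embryos, a log2 change of 1.20 (limma, adjusted p = 0.00142). Of the 52 rows switched on with Zfp352 and Spz1, none rose, 15 fell and 37 were not called, with a median of -0.33 against 0.12 over all rows. With scaling by the median of ratios none of the 52 rose and 25 fell, with a median of -0.45. Of 43 tested other 2-cell genes, 3 rose, 4 fell and 36 were not called, a smaller called share than over all rows. Their median was nonetheless lower, at -0.23 against 0.12 over all rows. With scaling by the median of ratios 1 rose and 11 fell, with a median of -0.35 against 0.006 over all rows. Of 20 tested regulators, Duxf3 among them, 6 rose, 1 fell and 13 were not called, against 4 higher and 4 lower with that scaling. Among the rows most like the 2 genes, Gm21936 (-0.84), AC124237.1 (-0.81), Gm44739 (-0.87) and Gm5543 (-0.33) were called lower. The rest were not called: Gm8300 (-0.40), B020004J07Rik (-0.30), Gm2022 (-0.27), Pramef25 (-0.10), Gm48388 (-0.09) and Gm10696 (-0.09). The summed oocyte markers were 782 to 1092 FPKM in KD-1cell and 702 to 779 in Ctrl embryos, with 6 of 8 called higher (5 of 8 with scaling by the median of ratios), and the sperm and testis list summed to 18.0 to 18.5 FPKM in KD-1cell and 12.6 to 15.4 in Ctrl embryos. Their part in these values was not tested. The Zfp352 levels of KD-1cell and Ctrl embryos were far above those of Late1c embryos, so the 1cell in the label is not read here as a stage.

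**Figure D4:**
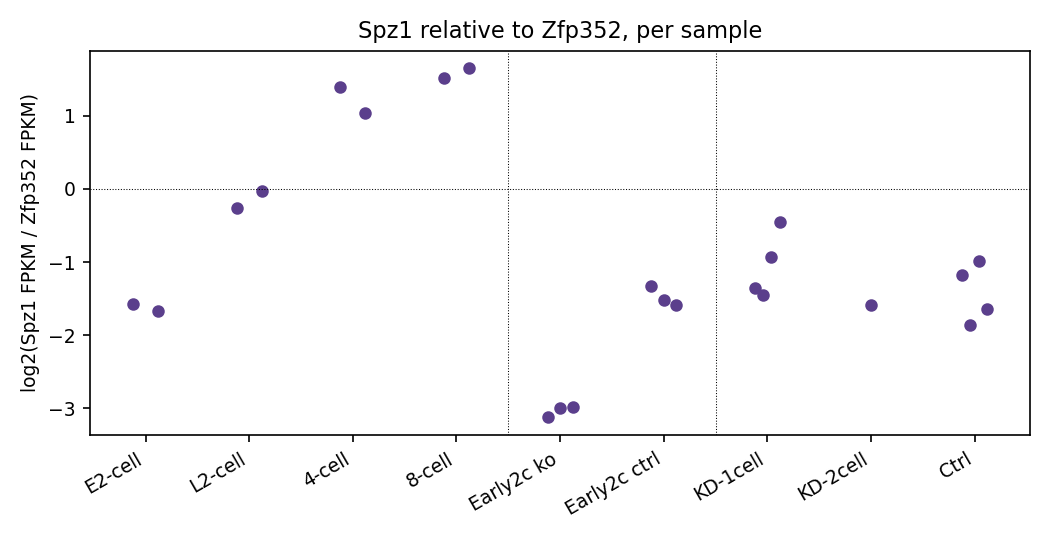
Spz1 relative to Zfp352 in each sample, as log2 of the ratio of their FPKM values, for the groups where both were measured above 1 FPKM. Points are samples. The ratio runs upward over the 4 stages and is lower in Early2c ko (0.115 to 0.126) than in Early2c ctrl embryos (0.332 to 0.400).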

How the data were processed

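Total RNA was sequenced with paired 150-base reads after ribosomal RNA removal, with a TruSeq stranded kit for the stages and a SMARTer stranded kit for small amounts, per the labels. The authors deposited 1 table of FPKM values with 43 columns for 57 samples. Per the submitters' processing notes, the tools named are cutadapt 1.18, HISAT2 2.1.0, StringTie 1.3.4d, Cufflinks and Cuffdiff 2.2.1, on GRCm38; whether strand was used and how shared reads were assigned is not stated there. Samples marked as added runs have no column of their own. Columns were matched to groups by name. Knockdown columns carry the short name lnc2, and their link to LncR-3363 rests on this being the only knockdown in the labels. Of 54446 Ensembl rows 53229 had a symbol in the gene name table.

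Values were used as log2(FPKM + 0.5). A row entered a fit when no fewer samples than its smallest group holds reached 1 FPKM, and was tested with limma 3.58.1 (R 4.3.3) with a mean-variance trend and Benjamini-Hochberg adjustment over all rows; the 12 MT2Mm columns shared 1 fit. A row was called at an adjusted p under 0.05. The procedure was tested on simulated data. Nothing says that the replicates came from separate cultures, so p-values measure only the spread between these samples, which may be technical. Same-numbered samples did not deviate together (correlation 0.02 to 0.08 in the knockdown, -0.14 to 0.15 in the MT2Mm experiment), so the numbers were not taken as pairs.

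Besides Zfp352 and Spz1, the text names the 5 symbols of highest likeness to each, fixed context genes, up to 6 listed genes of largest change each way in the MT2Mm comparison at Early2c, and annotated neighbours. The members and the lists were chosen with earlier results of these data known. Alternatives were the pseudocount (0.1 or 1 FPKM), no filter, median-of-ratios scaling, a replicate block, other groups in the fit, exact permutation tests and leaving out each replicate. Sequence matching used Biopython 1.88 on GENCODE transcripts and the RefSeq promoter table.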

Additional observations from a re-analysis of the deposited data

Results flagged for a closer look

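On the log2(FPKM + 0.5) scale the knockout effect on Spz1 differed between the 2 stages: the MT2Mm ko change at Early2c minus that at Late1c was -1.14 ± 0.21 (SE; limma interaction, adjusted p = 0.00146). The call was lost with an offset of 0.1 FPKM, at -0.42 (adjusted p = 0.531). It also rests on Late1c values near 0, in a row that entered the fit only through the Early2c columns. Spz1 was lower in all 3 ko than in all 3 ctrl samples at both stages, at 4.30 to 4.40 FPKM in ko against 13.4 to 13.9 FPKM in ctrl embryos at Early2c, and at 0 to 0.0186 FPKM in ko against 0.0589 to 0.409 FPKM in ctrl embryos at Late1c. Late1c levels this near 0 give no firm share of the ctrl level, so the falls at the 2 stages cannot be compared as shares. The size and the call of the difference rest on the offset, while the refits kept it between -1.37 and -0.42. The cause was not tested.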

How the results depend on the processing

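The fall of Spz1 in MT2Mm ko embryos at Early2c kept its direction and its call under every refit tried, between -1.68 and -1.45, and leaving out any 1 sample gave -1.55 to -1.52 (limma, adjusted p at most 7.5e-05). With 3 samples a group an exact permutation test cannot go below p = 0.1, so by it Spz1 at Early2c (-1.54) misses the threshold, as do the differences of Early2c from Late1c that are given as a description (Zfp352 5.97 in ctrl and 6.03 in ko, Spz1 4.40 in ctrl and 3.26 in ko). Scaling by the median of ratios brought Zfp352 at Early2c to -0.23 and called it. The interaction of Spz1 was -0.42 with a pseudocount of 0.1 FPKM and no longer called. That of Zfp352 turned to -0.0067 with a pseudocount of 1 FPKM and to -0.10 with scaling, and lay between -0.00096 and 0.10 with samples left out, below 0 only without Early2c ctrl replicate 1. Summing Zfp352 with Zfp353-ps, added after seeing the data, gave -0.52 at Late1c and 0.46 for the interaction. Both passed the threshold but are not read as results. The Late1c count of 15 calls is unstable: 44 with a pseudocount of 0.1 FPKM, 0 with 1 FPKM, 2 with no filter, 0 with scaling, 3 with only the 2 groups fitted and 0 to 4 with a sample left out, and 1108 rows had an unadjusted limma p under 0.05. With the replicate number as a replicate block that count was 0, and no call of Zfp352 or Spz1 changed; Spz1 at Early2c stayed at -1.54 (adjusted p = 3.3e-05). The remaining 227 alternatives kept their direction and side of the threshold or a like count. For the stages and hours, 13 of 56 alternative values moved beyond the replicate spread, with no change of direction. The files give no counts, so what depth limits at levels near 0 is unknown.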
